A study of Homo sapiens with 6 samples.

Results

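The insulin-like growth factor (IGF) system was examined in LX-2 cells, an established human hepatic stellate cell line, through 10 genes: the ligands IGF1 and IGF2, the receptors IGF1R and IGF2R, and the binding proteins IGFBP2 to IGFBP7. They were chosen by gene symbol and are 10 of the 60748 genes in the count table, all annotated as protein coding. Gene positions are given on GRCh38 from GENCODE release 29. LX-2Vector cells (n = 3) carried an empty lentiviral vector and LX-2FAP cells (n = 3) overexpressed fibroblast activation protein α (FAPα), a membrane serine protease, from the same kind of vector. Per the study's methods the vector has a ubiquitin promoter and an EGFP and puromycin resistance cassette, and stable cell clones were selected with puromycin. How many clones make up each line is not given in the sources used here. All cells were grown in fetal bovine serum and cultured for 24 h.

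The ligands IGF1 and IGF2 bind the tyrosine kinase receptor IGF1R, which signals through insulin receptor substrates to PI3K, AKT and ERK. IGF2R, the cation-independent mannose 6-phosphate receptor, has no kinase, takes up IGF2 for degradation and sorts newly made enzymes to lysosomes. The IGF-binding proteins hold IGFs outside the cell and release them when proteases cut the binding protein. Stellate cells that turn into matrix-producing myofibroblasts in an injured liver are known to secrete several of them, while the hepatocyte is the main source of circulating IGF1.

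The 250 bases before the RefSeq transcription start (GRCh38.p14, read 5′ to 3′ on the gene's strand) are shown for IGF1R, IGFBP3 and IGFBP5, the members with an unadjusted p under 0.05 in the comparison that follows, and for IGF2R, the other receptor. Capitals mark matches, on either strand, to 6 motifs. They are the TATA box, spelled TATAAA, which places the start of transcription in some promoters; the CCAAT box, named by its letters; and the GC box, spelled GGGCGG, which transcription factors of the SP family bind. The others are the hypoxia response core, spelled ACGTG, which HIF factors bind; the EGR1 site, spelled GCGNGGGCG, of a growth-induced factor; and the AP-1 site, spelled TGANTCA, of the FOS and JUN factors. Windows were held for 8 of 10 members.
IGF1R, chr15:98648289-98648538, plus strand: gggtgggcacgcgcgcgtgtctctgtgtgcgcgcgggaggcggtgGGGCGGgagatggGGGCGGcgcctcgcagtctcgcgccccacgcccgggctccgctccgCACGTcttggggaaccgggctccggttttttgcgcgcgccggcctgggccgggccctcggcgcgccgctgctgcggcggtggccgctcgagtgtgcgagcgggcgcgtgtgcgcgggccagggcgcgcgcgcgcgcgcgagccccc
IGF2R, chr6:159968832-159969081, plus strand: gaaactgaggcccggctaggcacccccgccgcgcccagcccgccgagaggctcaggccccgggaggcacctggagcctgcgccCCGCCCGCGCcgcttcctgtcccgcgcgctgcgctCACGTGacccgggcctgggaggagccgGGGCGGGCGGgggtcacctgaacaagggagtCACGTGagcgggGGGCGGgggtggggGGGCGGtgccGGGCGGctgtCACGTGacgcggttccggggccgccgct
IGFBP3, chr7:45921273-45921522, minus strand: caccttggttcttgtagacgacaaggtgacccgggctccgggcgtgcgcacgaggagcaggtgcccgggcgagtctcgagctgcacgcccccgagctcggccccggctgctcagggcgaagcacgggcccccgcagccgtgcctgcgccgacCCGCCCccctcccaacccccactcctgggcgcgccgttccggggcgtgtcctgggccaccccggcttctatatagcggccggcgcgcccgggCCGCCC
IGFBP5, chr2:216695550-216695799, minus strand: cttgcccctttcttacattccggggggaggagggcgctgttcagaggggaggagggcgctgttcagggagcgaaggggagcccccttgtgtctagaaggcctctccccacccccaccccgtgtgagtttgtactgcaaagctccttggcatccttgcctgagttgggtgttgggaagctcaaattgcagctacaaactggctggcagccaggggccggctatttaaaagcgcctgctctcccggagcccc

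The receptor windows were rich in G and C, with 81.2% in IGF1R and 79.2% in IGF2R, against 76% in IGFBP3 and 61.2% in IGFBP5. IGF1R had 2 GC boxes and 1 hypoxia response core. IGF2R had 6 GC boxes, 1 EGR1 site that overlaps the first of them, and 3 copies of CACGTG, a palindrome that holds the hypoxia response core on both strands and so counts as 6 matches. IGFBP3 had 2 GC boxes, and the IGFBP5 window held none of the 6 motifs. Over all 35116 windows of this length, 42.6% held a GC box, 18.5% the hypoxia response core, 8.41% the EGR1 site, 32% a CCAAT box, 10.7% a TATA box and 6.57% an AP-1 site. The IGFBP3 window lies inside the longer gene span of GENCODE release 29, where its last 2 bases are exonic. These matches describe letters and not binding. Only the exact spellings were searched, so a window without a match can still hold a near spelling, such as a variant of the TATA box.

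Total counts ran from 17355700 to 26352060 per library. The overexpressed gene, FAP, was counted 49, 42 and 55 times in the LX-2Vector libraries and 14864, 15160 and 14805 times in the LX-2FAP libraries. Of 20 stellate markers, 16 passed the filter on low counts: VIM had 1545 ± 34.5 normalized counts-per-million (CPM) and COL1A1 306 ± 27.8 in LX-2Vector (SD, n = 3), while DES (0.0283 ± 0.0249) was near 0 and LRAT, the retinoid storage enzyme, was at 0 in all libraries. VIM and COL1A1 were the highest of the 20, and several markers that passed the filter were low. In LX-2Vector, ACTA2 had 3.82 ± 0.337, DCN 1.38 ± 0.192, COL1A2 1.17 ± 0.213 and GFAP 0.637 ± 0.335 CPM. VIM (log2 fold change 0.13) was called higher and COL1A1 (-0.40), COL3A1 (-0.69) and PDGFRB (-0.38) lower in LX-2FAP by edgeR. These calls were 25% of the 16 tested markers, against 5.29% of all tested genes. Hepatocyte markers were near absent, with 1 of 10 (SERPINA1) passing the filter, ALB at 0.101 ± 0.0668 CPM in LX-2Vector, and a summed level of 13.4 to 15.1 CPM in LX-2Vector and 10.5 to 11.8 CPM in LX-2FAP. Endothelial markers, among which edgeR called VWF lower (log2 fold change -1.06) and DESeq2 called 0, summed to 11.9 to 13.4 CPM in LX-2Vector and 8.62 to 11.5 CPM in LX-2FAP, macrophage and leukocyte markers to 17.6 to 21.3 and 18.5 to 21.1, and epithelial markers, mostly SOX9, to 71.1 to 76.5 and 69.9 to 79.3. Their part in the results was not tested.

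LX-2 cells expressed binding proteins and both receptors, while the ligand genes had almost no counts. Most exon bases of the ligand genes are shared with other genes, which limits what their counts show. By FPKM (fragments per kilobase of gene length, also scaled to depth, which allows levels of different genes to be compared) the order in LX-2Vector was IGFBP4, IGFBP6, IGF2R, IGFBP7, IGF1R, IGFBP3, IGFBP5 and IGFBP2. Every neighbouring pair among these 8 stood in the same order in 3 of 3 LX-2Vector and 3 of 3 LX-2FAP libraries, with no overlap of their ranges. IGF1 and IGF2 came last and could not be ordered.

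**Figure D1:**
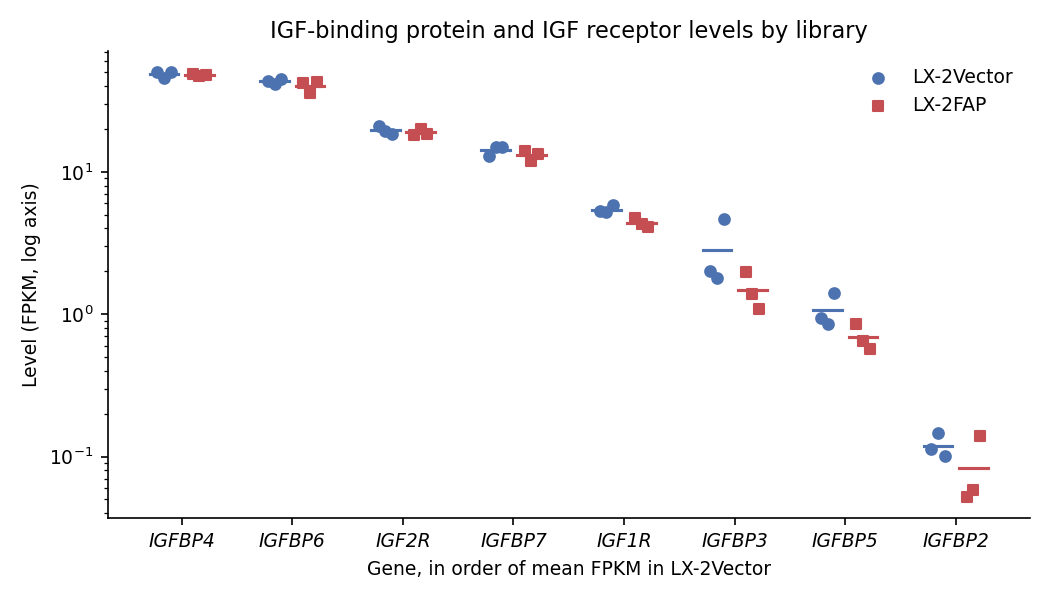
Level of the 8 detected members in each library, as deposited FPKM on a log axis, with the 3 libraries of each group as points and their mean as a short line. IGFBP4 is highest at 48.7 FPKM and IGFBP2 lowest at 0.119 FPKM in LX-2Vector; IGF1 and IGF2 are left out because a log axis cannot show 0.

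Among the ligands, IGF2, the fetal growth factor, had a count of 0 in all 6 libraries. Out of 128437953 counts in total this allows a level of up to 0.0234 CPM, by counting error only. The gene (ENSG00000167244, GRCh38 chromosome 11, 2129112 to 2149603, minus strand) shares 73.7% of its exon bases with other genes on its strand, among them the INS-IGF2 readthrough gene and a second entry named IGF2. How reads over shared exons were counted is not given in the sources used here. The 25% of exon bases that IGF2 shares with no gene, 1744 bases, also gave no count, and INS-IGF2, the second IGF2 entry and the antisense gene IGF2-AS were at 0 in all libraries too. Of 8 RNAs at or near the IGF2, IGF2R, IGF1R and IGFBP7 genes, most of them noncoding, 3 were tested and 2 had no count in any library. Called by edgeR or DESeq2 were 0 of the 3. An unadjusted edgeR p under 0.05 was reached by 2 of the 3, and by 4054 of all 18275 tested genes.

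IGF1, the growth hormone-induced ligand, had 1 count in LX-2FAP replicate 2 and 0 in the other libraries. IGF1 (ENSG00000017427, chromosome 12, 102395874 to 102481744, minus strand) shares 82.4% of its exon bases with HELLPAR, a long noncoding RNA on the other strand with 240 to 372 counts per library. The strand setting of the counting is not given, so only the remaining 17.6% of its exon bases speak for IGF1 alone. IGF1 and IGF2 did not pass the filter, and a count of 0 in 1 library allows 0.114 to 0.173 CPM, so no difference between the groups was detectable at this depth.

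IGF1R was the 1 member called by the test across all genes, in which 5.29% of 18275 tested genes were called. IGF1R (ENSG00000140443, chromosome 15, 98648539 to 98964530, plus strand) had 73.2, 71.7 and 80.4 CPM in LX-2Vector replicates 1 to 3, against 66.3, 60.4 and 57.4 CPM in LX-2FAP replicates 1 to 3. The groups did not overlap, which held for 26.4% of all tested genes: the lowest LX-2Vector library lay above the highest LX-2FAP library. In FPKM the level was 5.43 ± 0.341 in LX-2Vector and 4.35 ± 0.330 in LX-2FAP (SD, n = 3). IGF1R fell by 0.29 on the log2 scale (SE 0.06, edgeR quasi-likelihood adjusted p = 0.0152), which is 0.818 of the control level with a 95% interval of 0.749 to 0.893. In bulk RNA, a lower level in each cell cannot be told apart from fewer cells with the transcript. The call for IGF1R was lost when LX-2Vector replicate 3 was left out (log2 fold change -0.23, edgeR adjusted p = 0.0542), as it was without LX-2FAP replicate 2 (-0.28, 0.0711) or LX-2FAP replicate 3 (-0.24, 0.128). These 3 fits called 2.15%, 0.689% and 0.109% of all genes, in that order, so calls were lost across the whole table. Without LX-2Vector replicate 1 a similar share was called (2.2%), and IGF1R kept its call (-0.31, edgeR adjusted p = 0.0374). The change in IGF1R was smallest without LX-2Vector replicate 3, so its call also hung on that library. By limma-trend on log2(FPKM + 1), which called 2 of 18275 genes, IGF1R had a log2 fold change of -0.27 and an adjusted p of 0.122.

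IGF2R, the scavenger of IGF2, was not called. Its levels (ENSG00000197081, chromosome 6, 159969099 to 160113507, plus strand) were 472, 433 and 415 CPM in the control libraries and 416, 459 and 425 CPM with FAPα. The groups overlapped throughout. The ratio of LX-2FAP to LX-2Vector was 0.985, and its 95% interval of 0.915 to 1.06 leaves room for a change of a few percent in either direction (edgeR adjusted p = 0.853).

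IGF2R was above IGF1R per length in every library. The FPKM ratio of IGF2R to IGF1R was 3.97, 3.72 and 3.18 in LX-2Vector replicates 1 to 3 and 3.87, 4.69 and 4.57 in LX-2FAP replicates 1 to 3. The ratios overlapped between the groups, with means of 3.62 ± 0.405 and 4.37 ± 0.444 (SD, n = 3, 2-sided exact permutation p = 0.2, where 0.1 is the smallest possible). The deposited FPKM imply a length of 22613 bases for IGF2R, against 17843 exon bases in GENCODE release 29. For IGF1R both lengths were 13941 bases. The size of the ratio therefore depends on the gene model, and would be larger with the shorter IGF2R length. The insulin receptor gene INSR, whose product can form hybrid receptors with IGF1R, had 3.39 ± 0.0373 FPKM in LX-2Vector and 3.14 ± 0.0846 FPKM in LX-2FAP and was not called (log2 fold change -0.09, edgeR adjusted p = 0.392).

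The binding proteins divided into 3 abundant members, IGFBP4, IGFBP6 and IGFBP7, whose groups overlapped with narrow intervals, and 3 low members, IGFBP2, IGFBP3 and IGFBP5. IGFBP4, a binding protein that inhibits IGF action until the protease PAPPA cuts it, made up 44.2 ± 1.48% of the summed IGFBP FPKM in LX-2Vector and 46.4 ± 1.95% in LX-2FAP (SD, n = 3). IGFBP6, which prefers IGF2 over IGF1, made up 39.2 ± 0.380% and 38.8 ± 1.77%. IGFBP7, which binds IGFs weakly and is found around vessels, made up 13 ± 1.24% and 12.6 ± 0.355%. IGFBP3 held 2.53 ± 1.32% and 1.43 ± 0.401%, IGFBP5 0.962 ± 0.226% and 0.666 ± 0.127%, and IGFBP2 0.109 ± 0.0270% and 0.0802 ± 0.0451%. The summed level of the 6 genes was 105 to 116 FPKM in LX-2Vector and 96.5 to 107 FPKM in LX-2FAP.

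IGFBP4 (ENSG00000141753, chromosome 17, 40443461 to 40457731) had 111, 100.2 and 109 CPM in the control libraries and 108, 105 and 106 CPM with FAPα. All LX-2FAP values lay within the LX-2Vector range. The ratio between the groups was 0.998 (95% interval 0.932 to 1.07, edgeR adjusted p = 0.981).

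IGFBP6 (ENSG00000167779, chromosome 12, 53097436 to 53102345) had 58.1, 54.8 and 60.0 CPM in the control libraries and 57.0, 48.6 and 58.2 CPM with FAPα. LX-2FAP replicate 2 was the lowest library and the other LX-2FAP values lay among the controls. The ratio was 0.948 (95% interval 0.863 to 1.04, edgeR adjusted p = 0.528).

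IGFBP7 (ENSG00000163453, chromosome 4, 57030773 to 57110385) had 24.9, 28.6 and 28.5 CPM in the control libraries and 27.2, 23.2 and 26.1 CPM with FAPα. The ranges overlapped, and the ratio was 0.938 (95% interval 0.839 to 1.05, edgeR adjusted p = 0.525). Of its exon bases, 18.9% lie opposite POLR2B or IGFBP7-AS1. The strand setting of the counting is not given, so how far this affects its count is not known.

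IGFBP3, the main serum carrier of IGFs, had the largest fold difference of the tested members and also an outlying control. IGFBP3 (ENSG00000146674, chromosome 7, 45912245 to 45921874, minus strand) had 9.16, 8.09 and 21.3 CPM in the control libraries and 9.05, 6.45 and 5.01 CPM with FAPα. LX-2Vector replicate 3 was 2.46 times the mean of the other two controls, and LX-2FAP replicate 1 was at the level of those controls. The log2 fold change was -0.89 (SE 0.29), with an unadjusted edgeR p of 0.00683 that did not pass over all genes (adjusted p = 0.0787). Without LX-2Vector replicate 3 the log2 fold change was -0.32 (edgeR adjusted p = 0.325). It passed without LX-2FAP replicate 1 (-1.17, edgeR adjusted p = 0.0282) and without LX-2Vector replicate 2 (-1.11, 0.0445). With no filter on low counts it also passed, at the same size (-0.89, edgeR adjusted p = 3.46e-14). It did not pass by the DESeq2 Wald test (-0.90, adjusted p = 0.278).

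IGFBP5, a binding protein that associates with extracellular matrix, showed the same ranking of libraries as IGFBP3 at a smaller size. IGFBP5 (ENSG00000115461, chromosome 2, 216672105 to 216695525, minus strand) had 6.06, 5.41 and 9.07 CPM in the control libraries and 5.55, 4.23 and 3.72 CPM with FAPα. LX-2Vector replicate 3 was again the highest library, and LX-2FAP replicate 1 lay within the control range. IGFBP5 was lower by a log2 fold change of -0.60 (SE 0.18), with an unadjusted edgeR p of 0.00509 that missed the threshold over all genes (adjusted p = 0.0682). The value was -0.34 without LX-2Vector replicate 3 (edgeR adjusted p = 0.267). The gene passed without LX-2FAP replicate 1 (-0.79, edgeR adjusted p = 0.0179) and by the DESeq2 Wald test (adjusted p = 0.0445). It also passed with no filter on low counts (-0.60, edgeR adjusted p = 0.000537). Of its exon bases, 4.63% lie opposite another gene, AC007563.2.

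IGFBP2, the neighbour of IGFBP5 with 7668 bases between the 2 genes, was barely expressed. IGFBP2 (ENSG00000115457, chromosome 2, 216632828 to 216664436, plus strand) was counted 14, 12 and 10 times in the control libraries and 6, 5 and 14 times in the LX-2FAP libraries. The groups overlapped, and the ratio of 0.723 had a 95% interval of 0.405 to 1.29 (edgeR adjusted p = 0.529), which takes in changes in either direction. IGFBP1, the insulin-regulated hepatocyte gene 18576 bases from IGFBP3, had 3 counts over the 6 libraries.

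**Figure D2:**
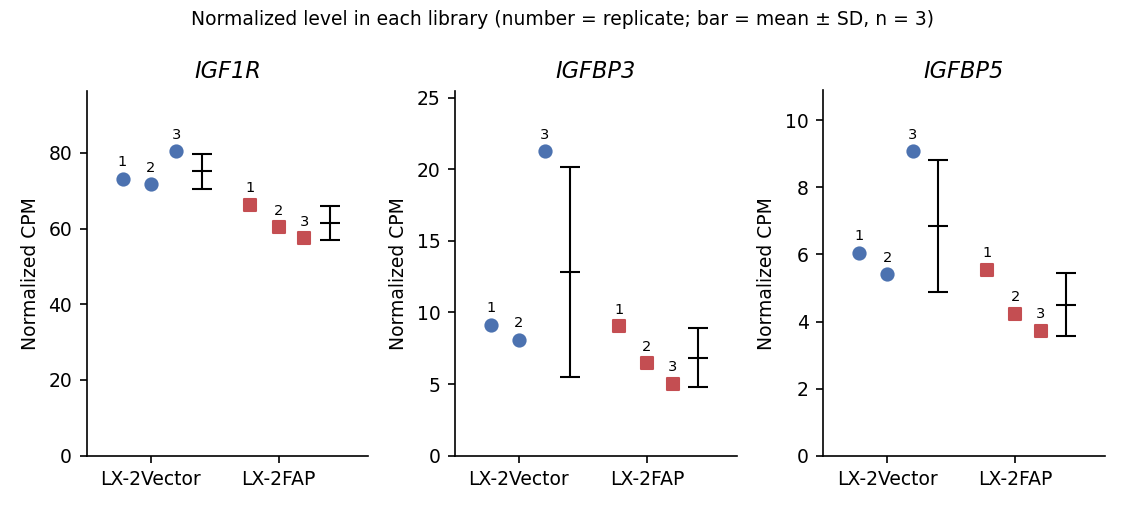
Normalized CPM of IGF1R, IGFBP3 and IGFBP5 in each library on axes that start at 0, with replicate numbers above the points and the mean ± SD of 3 libraries beside them. IGF1R separates the groups, while IGFBP3 and IGFBP5 overlap, with LX-2Vector replicate 3 highest (21.3 and 9.07 CPM).

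Over the family, 8 of 10 members were tested, and all had a log2 fold change below 0, as had 53% of the 18275 genes tested. For IGFBP4 and IGF2R the sign depended on the fit (with DESeq2 size factors IGFBP4 was 0.0037), and IGFBP2 passed the filter mainly through its LX-2Vector libraries. Called lower was 1 of the 8 (IGF1R), against 2.73% of all tested genes. No member was called higher by edgeR or DESeq2 (2.57% of all genes), and 0 had an unadjusted p under 0.05 in that direction. An unadjusted p under 0.05 with a lower level was reached by 3 members (IGF1R, IGFBP3 and IGFBP5) by edgeR and by 2 by DESeq2, against 11.6% of all genes by edgeR. Groups did not overlap for 1 member (IGF1R). The median log2 fold change was -0.19 over the tested members and -0.01 over all tested genes.

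**Figure D3:**
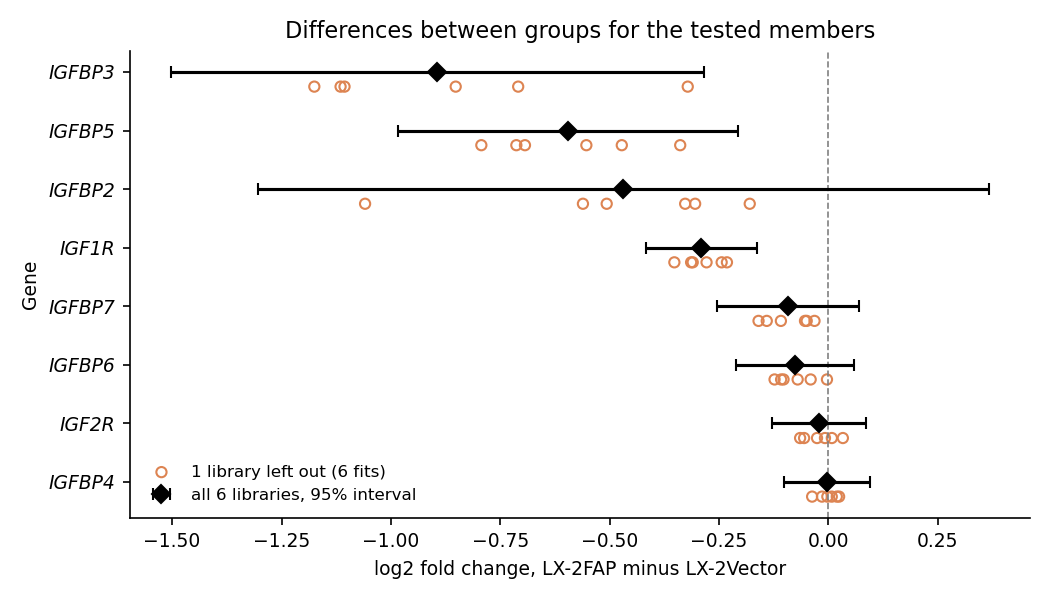
Log2 fold change of LX-2FAP minus LX-2Vector for the 8 tested members, as diamonds with 95% intervals from edgeR, and the values of the 6 fits that each leave out 1 library as open circles. IGF1R (-0.29) has a narrow interval below 0, IGFBP3 (-0.89) a wide one whose fits spread from -1.17 to -0.32, and IGFBP4 and IGF2R lie at 0.

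IGFBP3, IGFBP5 and IGF1R, the members with an unadjusted edgeR p under 0.05, had their highest level in LX-2Vector replicate 3. Their 2 lowest levels were in LX-2FAP replicates 3 and 2. The share of all genes with this ranking is not given here. Beside them, the summed level of 15 hypoxia-responsive genes was 2802, 2800.3 and 3335 CPM in LX-2Vector replicates 1 to 3, against 2719.7, 2203 and 2345 CPM in LX-2FAP replicates 1 to 3. That list also had its highest value in LX-2Vector replicate 3, its lowest in LX-2FAP replicates 2 and 3, and LX-2FAP replicate 1 nearest to the controls. Most of the sum came from LDHA (1024 ± 74.1 CPM in LX-2Vector) and PGK1 (843 ± 70.0 CPM), of a summed 2979 ± 308 CPM (SD, n = 3). All 13 tested genes of the list were lower in LX-2FAP, as were 53% of all tested genes. Of the 13, edgeR called 7 lower, against 2.73% of all tested genes, and DESeq2 called 2, against 5.59% called in either direction. The list was chosen with earlier results of these data known, so these counts are not an independent result. The largest changes called were in NDRG1, a stress-induced gene (log2 fold change -0.98, edgeR adjusted p = 0.0249), and in PFKFB4 (-0.49), ENO2 (-0.49) and PDK1 (-0.40), which act in glucose metabolism. By edgeR the calls in the list were 5, 6 and 1 without LX-2Vector replicates 1, 2 and 3, and 9, 0 and 0 without LX-2FAP replicates 1, 2 and 3. With no call, 10 genes (without LX-2FAP replicate 2) and 9 genes (without LX-2FAP replicate 3) had an unadjusted p under 0.05. The share of all genes at that p in these fits is not given here. With all libraries, 9 of the 13 and 4054 of all 18275 tested genes had such a p by edgeR, in either direction. The same fits called 402, 669 and 392 of all genes without a control library and 1935, 126 and 20 without a LX-2FAP library. The part of this in the IGFBP3, IGFBP5 and IGF1R values was not tested.

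**Figure D4:**
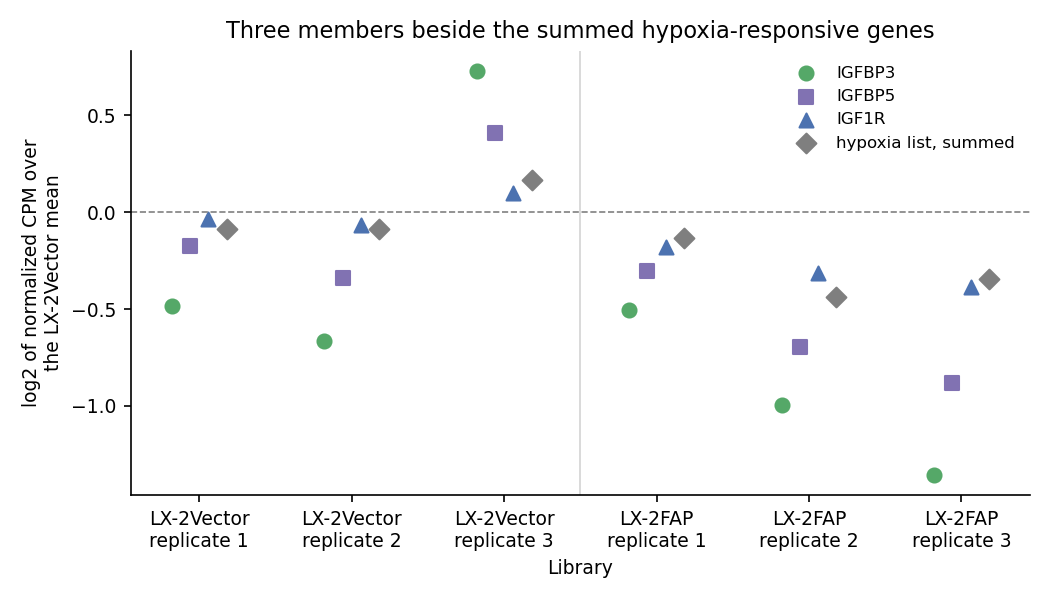
Log2 of the normalized CPM over the LX-2Vector mean in each of the 6 libraries, for IGFBP3, IGFBP5, IGF1R and the sum of the hypoxia-responsive genes. Most of that sum is LDHA and PGK1. In LX-2Vector replicate 3 all 4 lie above 0 (0.73, 0.41, 0.10 and 0.16), and in LX-2FAP replicate 3 all lie below (-1.36, -0.88, -0.39 and -0.35).

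Downstream and around the receptors, 103 genes of the IGF pathway were listed by role, and 89 of them were tested. Of these, 2 were called higher and 3 lower (5.62%, against 5.29% of all genes), and the median log2 fold change was -0.01. STC1 and STC2, secreted glycoproteins that inhibit the IGFBP4 protease PAPPA, changed in opposite directions. STC1 rose by 0.20 on the log2 scale, from 285 ± 7.89 to 327 ± 11.4 CPM (SD, n = 3, edgeR adjusted p = 0.0151), and STC2 fell from 90.4 ± 6.10 to 75.6 ± 2.00 CPM (-0.26, 0.0144). PAPPA itself had 5.07 ± 1.09 and 5.25 ± 0.218 CPM (log2 fold change 0.05, edgeR adjusted p = 0.891). These 2 were the calls among 11 tested IGFBP proteases and inhibitors.

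The largest change among the 5 called pathway genes was in LRP1, a large endocytic receptor that also binds IGFBP3. LRP1 had 195, 167 and 192 CPM in the control libraries and 159, 127 and 134 CPM with FAPα, with no overlap between groups. Its log2 fold change of -0.40 (SE 0.07) had an edgeR adjusted p of 0.00823, and it was the 1 call among 13 tested sorting and trafficking genes. PTPN11, which encodes the phosphatase SHP2, rose from 555 ± 15.0 to 628 ± 28.3 CPM (0.18, edgeR adjusted p = 0.0233) as the 1 call among 16 adaptors and substrates. INPPL1, which encodes the lipid phosphatase SHIP2, fell from 197 ± 11.6 to 173 ± 9.76 CPM (-0.19, edgeR adjusted p = 0.0392) as the 1 call among 31 genes of PI3K, AKT and mTOR.

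Neither edgeR nor DESeq2 made a call among 13 tested FOXO factors and FOXO targets or among the 3 IGF2 mRNA-binding proteins. An unadjusted edgeR p under 0.05 was reached by 3 of the FOXO list and 1 of the mRNA-binding proteins. Of all 18275 tested genes, 4054 reached it in either direction. IGF2BP2, which binds IGF2 mRNA among others, had 105 ± 3.61 and 107 ± 1.16 CPM, IGF2BP3 35.3 ± 0.802 and 38.5 ± 1.00 CPM, and IGF2BP1 0.772 ± 0.219 and 0.636 ± 0.367 CPM. Their edgeR adjusted p-values were 0.844, 0.188 and 0.590. Left-out libraries ended calls for each of the 5 pathway genes: LRP1 was not called without LX-2FAP replicate 3 (log2 fold change -0.37), STC1 without LX-2FAP replicate 2 or 3 (0.17 to 0.21), and STC2 without LX-2Vector replicate 3 or LX-2FAP replicate 2 or 3 (-0.26 to -0.19), in fits that called fewer of all genes too. PTPN11 (0.15 to 0.18) and INPPL1 (-0.19 to -0.15) were not called without LX-2Vector replicate 1 or 3 or LX-2FAP replicate 2 or 3.

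The genes most like the 3 members with the highest counts were sought by the root mean square difference of centred log2 CPM over the 6 libraries, among the 11555 genes whose mean count reached 100. For IGF1R they were TAPBP, SERPINA1 and HEG1, at 0.03 for each on that scale, where the median gene was at 0.19. For IGF2R they were ARHGEF18, PI4KB and DHX38 (0.01 to 0.02, median 0.11), and for IGFBP4 ACSF3, QARS1 and RCAN3 (0.01 to 0.02, median 0.09). IGF2R and IGFBP4 spanned only 0.19 and 0.14 log2 units over the libraries, so closeness to them means closeness to a nearly flat profile. For all 3 members, IGF1R included, the nearest of 11555 genes over 6 libraries fall below the median by the way they were picked. Whether any of these genes is tied to a member was not tested.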

How the data were processed

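The labels describe ribosomal depletion, and the methods text names both that and a poly(A) isolation module. Reads were aligned by the authors with HISAT2 2.0.5, counted per gene with featureCounts 1.5.0-p3 and deposited as raw counts beside FPKM values scaled by gene length and depth. The build field names hg18, but 58337 of 60605 Ensembl identifiers are in GENCODE release 29 (GRCh38), from which gene coordinates were taken. Groups came from sample titles.

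Counts of all genes were fitted with edgeR 4.0.16 (TMM, minimum count 10, quasi-likelihood test, 2-sided), which tested 18275 genes. Genes were called at a Benjamini-Hochberg adjusted p under 0.05. CPM values carry TMM factors, and intervals come from the fit. P-values measure the spread between libraries, which no label says are separate cultures. On simulated counts for 18275 genes the test recovered 96% of 200 genes changed 1.5-fold. No smaller change was simulated, so this does not give the power for a change of the size seen in IGF1R. Nor does it give the power for members whose libraries spread widely, or for IGFBP2, whose mean count of 10.2 is below those of the changed genes. In the data, IGFBP3 (log2 fold change -0.89) and IGFBP5 (-0.60) were not called by edgeR with the settings above. All members, the lists' called genes and a few fixed pathway genes are named. Members and lists were chosen with earlier results of these data known. Alternatives were DESeq2 1.42.0, limma 3.58.1 on FPKM, other scalings, filters and thresholds, the replicate number as a block, and each library left out.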

Additional observations from a re-analysis of the deposited data

How the results depend on the processing

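With each library left out in turn, members called lower ran from 0 to 3 and IGF pathway genes called from 0 to 15. Both were 0 without LX-2FAP replicate 3 and highest without LX-2FAP replicate 1; 0 members were also called without LX-2Vector replicate 3 or LX-2FAP replicate 2. The counts moved mostly with the whole table, of which 5.29% was called with all libraries. Leaving out LX-2FAP replicates 1, 2 and 3 gave 10.6%, 0.689% and 0.109% of all genes, and leaving out the third control 2.15%. Leaving out the first control gave a similar share, 2.2%, with IGF1R still called. Members called lower were 3 without a filter on low counts, 2 by the DESeq2 Wald test, and 0 by limma-trend with either pseudocount or at an adjusted p under 0.01. Of all genes these settings called 3.9%, 5.59%, 0.0109% and 0.635%. With so few calls by limma-trend (2 genes), a count of 0 there says nothing of the members. IGF pathway genes called were 8 with library size alone, 13 without a filter, 0 by limma-trend with either pseudocount, and 1 at an adjusted p under 0.01 or with a fold change over 1.2. By limma-trend 2 members had an unadjusted p under 0.05, as had 19 pathway genes with a pseudocount of 1 and 18 with 0.1. The cause was not tested. The share of all genes at that p by limma-trend is not given here. No alternative called a member higher. IGFBP4 reversed to 0.0037 with DESeq2 size factors and by the DESeq2 Wald test, and ran from -0.037 to 0.024 with a library left out, where IGF2R ran from -0.065 to 0.033. By CPM in place of FPKM, 5 of 10 members kept their rank.

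The replicate number as a block left 1 member called lower (IGF1R, log2 fold change -0.29, edgeR adjusted p = 0.0223) and 5 pathway genes called. Same-numbered libraries did not deviate together (correlations -0.04, 0.04 and -0.01), so the numbers were not taken as pairs. IGFBP2 could not be fitted with at least 10 counts asked of every library, and low counts limit IGF1 and IGF2 too.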
